A study of Mus musculus with 2 samples.

Results

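S100 proteins, annexins and galectins are calcium- and sugar-binding proteins, and their genes were chosen by symbol: every row of both count tables named S100a with a number, S100b, Anxa with a number, Lgals with a number, or Lgals3bp. The rule found 35 of the 52636 genes, namely 14 S100 genes, 12 annexins and 9 galectin genes including Lgals3bp. The RNA-seq data held 1 library labelled as retina of miR-29a KO mice, which lack the microRNA miR-29a, and 1 labelled as retina of WT mice. Both came from C57BL/6 mice at 8 weeks of age, and each was made from the pooled retinas of 3 mice, so the spread between animals could not be seen. With 1 library per genotype there are no replicates, no test of genotype and no p-values, and every difference below is between these 2 libraries.

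S100 proteins are small EF-hand proteins that change shape on binding calcium and then dock onto target proteins, several of them annexins. Annexins attach to membranes rich in acidic phospholipid when calcium rises, and take part in membrane repair and vesicle traffic. Galectins bind galactose-containing glycans on glycoproteins and, although they lack a signal peptide, many are released from cells. In retina, S100b is known from astrocytes and Mueller glia, and galectin-3 from activated microglia.

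The totals were 24876925 counts in the library labelled KO and 26805902 in the library labelled WT. Mir29a itself had 0 counts in both, and a hairpin of that length is seldom counted by such libraries, so this does not check the labels. The labelled tissue was not borne out by its markers: 8 photoreceptor markers, Crx and Sag among them, summed to 0.362 CPM (counts scaled to an equal library total) in the library labelled KO and 0.634 CPM in the library labelled WT, with at most 4 and 7 counts for any of them. Of 6 markers of other retinal neurons, 5 were at 0 in both. The 8 fibroblast markers summed to 15884 and 14146 CPM in the libraries labelled KO and WT. The 10 macrophage markers summed to 1316 CPM in the library labelled KO and 335 CPM in the library labelled WT. All 9 with at least 50 counts were higher by 2-fold or more in the former, against 4.47% of all genes with such counts. The libraries are therefore called by their labels.

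Sequences are shown for the microRNA that the KO lacks, for the one member with a site for it, and for the promoters of Lgals3bp and Lgals9, which are known to respond to interferon. Lgals3bp passed 2-fold as lower in the library labelled KO, and Anxa3, the member with the site, as higher, while Lgals9 passed neither way. The mature microRNA (GRCm38.p6, chr6:31062673-31062694, minus strand) is printed with its seed, bases 2 to 8, in capitals, and the Anxa3 site with the complementary heptamer in capitals.
mmu-miR-29a-3p: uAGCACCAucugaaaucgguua
Anxa3 site: cacttgcactgTGGTGCTcccaccaagca

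The heptamer TGGTGCT was searched in the longest annotated 3' UTR of each coding gene (GENCODE M21). Of 33 members with a 3' UTR, only Anxa3 held it. Among members with at least 50 counts this was 1 of 24 (4.17%), against 16.1% of the 11585 coding genes searched, whose median 3' UTR was 1225 bases long, against 351 bases for these members. The Anxa3 heptamer lies at chr5:96825666-96825672 on the plus strand, in the 3' UTR of a short isoform. It is in 1 of 3 coding transcripts of the gene, and it falls in an intron of the transcript with 13 exons. Reads were counted per gene, so the share of Anxa3 counts from the isoform with the site is not known.

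The promoter windows run from 250 bases before to 50 bases after the annotated start, both on the minus strand of chromosome 11 (RefSeq, GRCm38.p6). Lgals3bp lies at chr11:118401910-118402209 and Lgals9 at chr11:78984875-78985174. Capitals mark matches, on either strand, to GAAANNGAAA or to AAANNGAAAC, letters shared by the interferon-stimulated response element. The motifs were chosen after the values and these windows had been seen.
Lgals3bp promoter: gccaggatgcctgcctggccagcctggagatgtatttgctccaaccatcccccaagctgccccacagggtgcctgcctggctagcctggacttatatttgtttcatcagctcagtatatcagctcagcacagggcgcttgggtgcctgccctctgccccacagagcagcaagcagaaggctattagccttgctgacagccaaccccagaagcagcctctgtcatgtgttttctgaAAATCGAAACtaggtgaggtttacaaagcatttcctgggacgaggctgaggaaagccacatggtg
Lgals9 promoter: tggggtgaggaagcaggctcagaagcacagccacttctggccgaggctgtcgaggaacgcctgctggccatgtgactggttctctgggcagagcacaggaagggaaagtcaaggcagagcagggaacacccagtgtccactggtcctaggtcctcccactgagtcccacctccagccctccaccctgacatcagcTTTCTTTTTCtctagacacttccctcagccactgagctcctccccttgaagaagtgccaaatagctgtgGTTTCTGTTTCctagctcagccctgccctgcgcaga

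GAAANNGAAA was found in 3.44% of 32851 promoter windows of this length and AAANNGAAAC in 2.24%. Of the 27 members with a window, Lgals9 had the first motif at bases 196 to 205 and 266 to 275, and the second, overlapping it, at bases 265 to 274. Lgals3bp had only the second, at bases 236 to 245. No other of the 27 members had either. A match is a description of letters and not evidence that a factor binds there.

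Together the 35 genes took 1.53% of all counts in the library labelled KO and 1.82% in the library labelled WT. The largest share came from Lgals1, which made up 41.6% of the members' counts in the library labelled KO and 51.6% in the library labelled WT. Without Lgals1 the other members summed to 8923 CPM in the library labelled KO and 8829 CPM in the library labelled WT. By family, galectin genes took 0.748% of counts in the library labelled KO and 1.08% in the library labelled WT, S100 genes 0.455% and 0.480%, and annexins 0.325% and 0.266%.

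A gene was compared when it had 50 or more counts in the higher library, and was counted as higher or lower when its ratio of CPM, with 0.5 added to each value, reached 2-fold. Of the 24 members past this minimum, 2 were higher in the library labelled KO (S100a8 and Anxa3), 1 was lower (Lgals3bp) and 21 were neither. Over all 12382 genes past the minimum, 7.29% were beyond 2-fold, 4.47% higher and 2.82% lower, and a count of 3 among 24 members is not set apart from that background here. The median log2 ratio of KO over WT was 0.17 for the 24 members and 0.06 for all genes. It was 0.09 for 10 S100 genes, 0.25 for 9 annexins and -0.48 for 5 galectin genes. Without Lgals3bp, which is not a lectin of the galectin fold, the median of the other 4 galectin genes was -0.24. Bracketed ranges below are 95% exact (Clopper-Pearson) intervals of the ratio. They cover counting error only, since there is 1 library per genotype. No molecular identifiers were used to tell reads of the same molecule apart, so the intervals may be too narrow even for counting error. In bulk RNA, fewer cells of a type and less RNA per cell cannot be told apart.

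**Figure D1:**
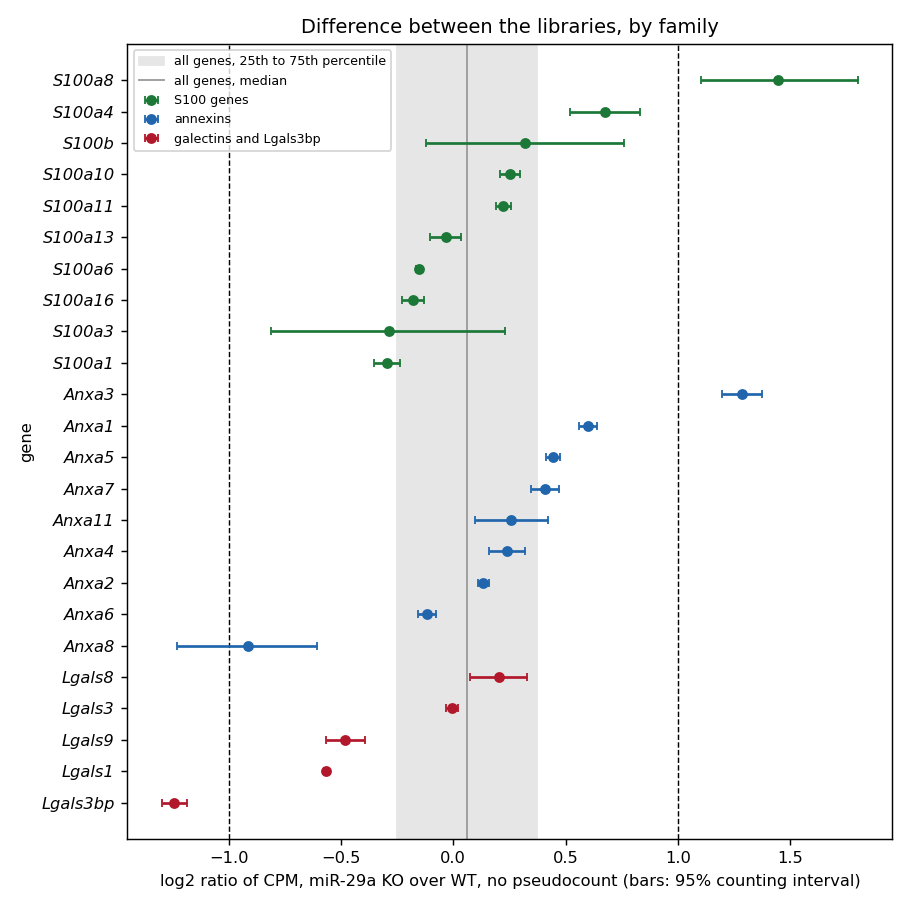
Log2 ratio of CPM, miR-29a KO over WT with no pseudocount, for the 24 members with at least 50 counts (points, coloured by family; bars, 95% counting intervals; dashed lines, 2-fold; grey band, 25th to 75th percentile of all genes). S100a8 and Anxa3 lie right of the upper line and Lgals3bp left of the lower line, while 7 of 9 annexins lie above 0 and 4 of 5 galectin genes below 0.

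S100a6 (calcyclin), a gene active in fibroblasts and dividing cells, was the most abundant S100 transcript per length, at 2259 FPKM in the library labelled KO and 2610 FPKM in the library labelled WT (FPKM is a count scaled to gene length and library total). It ranked 16 and 14 among all genes on that scale and gave 66.8% and 70.2% of S100 counts. Its 75504 and 90426 counts made it 1.11-fold lower (1.10 to 1.12) in the library labelled KO, a difference beyond counting error but well short of 2-fold. S100a11, which docks onto annexin A1, stood at 1153 and 1027 FPKM in the libraries labelled KO and WT (log2 ratio 0.22). S100a10, the partner of annexin A2 that does not itself respond to calcium, stood at 278 and 243 FPKM (log2 ratio 0.25). These abundant genes form the same top order in both libraries, S100a6 above S100a11 above the rest.

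S100a1, best known from heart and skeletal muscle, was at 241 FPKM in the library labelled KO and 307 FPKM in the library labelled WT, 1.23-fold lower (1.18 to 1.28). It is the next most abundant after S100a11 in the library labelled WT but stood below S100a10 in the library labelled KO. S100a16 was at 159 FPKM in the library labelled KO and 187 FPKM in the library labelled WT (log2 ratio -0.18, and 0.07 after the GC and length correction described at the end). S100a13, which takes part in the release of fibroblast growth factor without a signal peptide, was at 188 and 200 FPKM, and its counting interval included 1 (ratio 0.98, 0.93 to 1.02). Its log2 ratio of -0.03 became 0.14 with that correction. None of these S100 genes passed 2-fold.

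S100a4, often used as a fibroblast marker but also abundant in macrophages, had 856 counts in the library labelled KO and 578 in the library labelled WT. Its level was 60.0 FPKM against 39.1 FPKM, a ratio of 1.60 (1.43 to 1.78). This was the second largest ratio among the S100 genes and lay below the 2-fold mark.

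S100a8 (ENSMUSG00000056054, chr3:90668978-90670035), which joins S100a9 to form calprotectin in neutrophils and activated macrophages, had 248 counts in the library labelled KO and 98 in the library labelled WT, or 9.97 CPM and 3.66 CPM. It was 2.73-fold higher (2.15 to 3.48), and the whole interval lay beyond 2-fold. Its partner S100a9 had 0 counts in both libraries, which by a floor of 3 counts allows up to 0.121 CPM in the library labelled KO and 0.112 CPM in the library labelled WT. The neutrophil markers Mpo, Elane, Ngp and Ltf were also at 0 in both, and Ly6g had 0 and 3 counts. Camp, which encodes an antimicrobial peptide of neutrophil granules, was the exception with 1276 and 1294 counts, and the receptor gene Csf3r had 16 and 3. The 8 neutrophil markers other than Camp and the S100 genes summed to 0.683 CPM in the library labelled KO and 0.261 CPM in the library labelled WT. The macrophage markers moved with S100a8: Tyrobp, a signalling adaptor, had 1888 counts in the library labelled KO and 458 in the library labelled WT, and the lysozyme gene Lyz2 had 21052 and 5827. The part of macrophage RNA in the S100a8 difference was not tested.

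S100b had 96 counts in the library labelled KO and 83 in the library labelled WT, and its interval included 1 (ratio 1.25, 0.92 to 1.69). Of glial markers, Gfap had 1 and 5 counts in the libraries labelled KO and WT and Aqp4 had 0 in both, while Glul had 4219 and 3733 and Slc1a3 504 and 644, genes that other cells also express. S100a3, known from the hair cuticle, had 57 counts in the library labelled KO and 75 in the library labelled WT (ratio 0.82, 0.57 to 1.17), over a gene model of 5660 exonic bases, which lowers its FPKM. S100a5, S100a14 and S100a2 were below the minimum, with 9, 1 and 0 counts in the library labelled KO and 13, 0 and 0 in the library labelled WT. S100a14 and S100a2 are known from epithelia. Of 6 surface epithelium markers 0 reached the minimum, and 3, the keratin gene Krt14 among them, were at 0 in both libraries. The highest, Cdh1, had 16 counts in the library labelled KO and 5 in the library labelled WT.

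Of the S100 genes that the symbol rule took in, all but S100b lie on chromosome 3 (GRCm38). They form a run of 11 members over 185 kb (90511034 to 90695721) and a pair, S100a11 and S100a10, further along (93520488 to 93564643). S100a7a, which is outside the rule, also lies within that run (90654017 to 90658669). Neighbours differed widely in level and direction. S100a4, with a log2 ratio of 0.66, begins 4.75 kb before S100a5, which had 9 counts in the library labelled KO and 13 in the library labelled WT, and S100a5 is followed by S100a6 at -0.15. S100a8, at 1.33, is followed by S100a9 at 0 counts. A transcript model that joins S100a3 and S100a4 (Gm42674) covers 51.7% of the exonic bases of S100a4 and had 0 counts in both libraries.

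**Figure D2:**
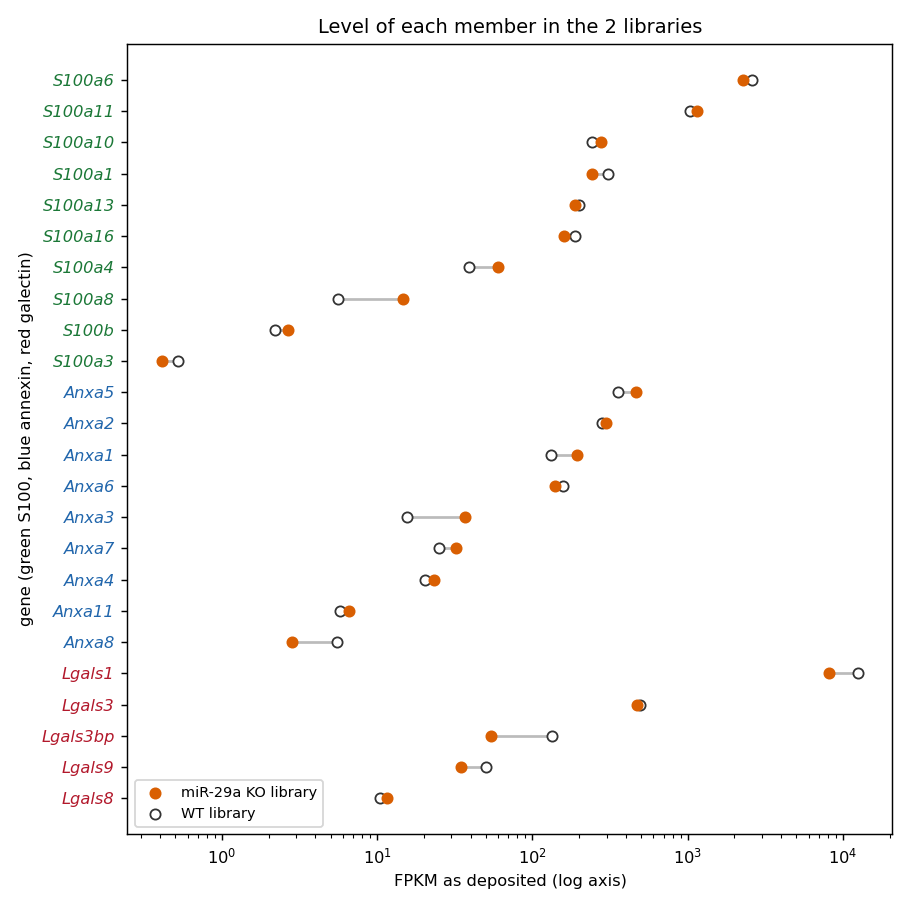
Level of each of the 24 members with at least 50 counts, in FPKM as deposited on a log axis (filled orange points, the library labelled miR-29a KO; open points, the library labelled WT; genes grouped by family and ordered by level). Lgals1 at 8081 and 12435 FPKM and S100a6 at 2259 and 2610 FPKM stand above the rest, and S100a3 at 0.412 and 0.523 FPKM is lowest.

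Annexins leaned toward higher levels in the library labelled KO: 7 of 9 had a log2 ratio above 0 and all 7 of those intervals lay above 1, while 1 of 9 passed 2-fold. Over all genes 55.0% had a log2 ratio above 0 and 4.47% were higher by 2-fold. The share of all genes with an interval above 1 is not given here. Anxa5, whose protein binds exposed phosphatidylserine and is used as a probe of dying cells, was the most abundant per length, at 464 FPKM in the library labelled KO and 354 FPKM in the library labelled WT (ratio 1.36, 1.33 to 1.39). Anxa2, which with S100a10 forms a cell-surface receptor for plasminogen, was at 296 and 280 FPKM (ratio 1.10, 1.08 to 1.12).

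Anxa1, which encodes a glucocorticoid-induced inhibitor of inflammation, had 12314 counts in the library labelled KO and 8751 in the library labelled WT. Its level was 193 against 132 FPKM, a ratio of 1.52 (1.48 to 1.56). Its formyl peptide receptors were nearly absent: of 5 receptor genes 0 reached the minimum, Fpr2 had 2 and 4 counts in the libraries labelled KO and WT, and 3 were at 0 in both. Anxa7 (synexin) was at 32.1 and 25.1 FPKM (ratio 1.33, 1.27 to 1.39), Anxa4 at 23.1 and 20.4 FPKM (log2 ratio 0.24) and Anxa11, which helps carry RNA granules, at 6.58 and 5.72 FPKM (log2 ratio 0.25). Each of these was higher in the library labelled KO by less than 2-fold.

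Anxa3 (ENSMUSG00000029484, chr5:96793339-96845966), a phospholipid-binding annexin found in neutrophils, had 3255 counts in the library labelled KO and 1440 in the library labelled WT. The level was 131 CPM against 53.7 CPM. It was 2.44-fold higher (2.29 to 2.59), the largest ratio among the annexins, and it is the member with the miR-29 heptamer printed above. Its log2 ratio was 1.28, and 1.12 after subtracting the medians of genes of like GC content and length.

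Anxa6, whose protein carries a duplicated annexin core, went slightly the other way at 139 FPKM in the library labelled KO and 157 FPKM in the library labelled WT (ratio 0.92, 0.90 to 0.95), but its log2 ratio was 0.03 after the GC and length correction. Anxa8, known from stratified epithelia, had 130 counts in the library labelled KO and 264 in the library labelled WT, and was 1.88-fold lower (1.52 to 2.34), just short of the 2-fold mark. Anxa9, Anxa10 and Anxa13 were below the minimum with 7, 0 and 2 counts in the library labelled KO and 5, 0 and 0 in the library labelled WT.

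Galectin genes leaned the other way, with 4 of 5 log2 ratios below 0, against 5575 of 12382 over all genes. By 2-fold 1 was lower, against 2.82% of all genes. Of the 5 intervals 3 lay below 1, against 8 of all 24 members, and that of Lgals3, at a log2 ratio of -0.004, included 1. The share of all genes with an interval below 1 is not given here. After the GC and length correction Lgals3 stood at 0.16 and Lgals8 at -0.04, again 4 of 5 below 0. Annotated pseudogenes of Lgals1 and S100a11 had 0 counts in both libraries. Lgals1, the prototype galectin of connective tissue, was the third most abundant gene per length in the library labelled KO and the second in the library labelled WT. It had 158071 counts in the library labelled KO and 252121 in the library labelled WT, or 6354 against 9405 CPM. It was 1.48-fold lower (1.47 to 1.49) and thus not counted as lower by 2-fold, although its difference of CPM was the largest of any member. Its log2 ratio of -0.57 ranged from -0.63 to -0.39 over the alternatives, the last with the GC and length correction. Lgals3, the galectin of macrophages and fibroblasts that gathers on damaged endosomes, had 21409 and 23135 counts in the libraries labelled KO and WT, and its level was 861 and 863 CPM (interval of the ratio 0.98 to 1.02). The macrophage markers, by contrast, had a median log2 ratio of 2.06. By FPKM as deposited, Lgals1 exceeded Lgals3 17.1-fold in the library labelled KO and 25.3-fold in the library labelled WT. These ratios would be smaller over all exonic bases in GENCODE M21, since the FPKM of Lgals1 was scaled to a shorter length.

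Lgals3bp (ENSMUSG00000033880, chr11:118392751-118402092) encodes a secreted glycoprotein that binds galectin-3 and is known to be induced by interferon. It is not a lectin of the galectin fold. It had 3782 counts in the library labelled KO and 9632 in the library labelled WT, or 152 against 359 CPM, and was 2.36-fold lower (2.28 to 2.45), with the whole interval beyond 2-fold. After the GC and length correction its log2 ratio was -1.02, close to the mark. Lgals9, a galectin with a pair of sugar-binding domains that is also known to respond to interferon, had 1820 counts in the library labelled KO and 2737 in the library labelled WT, 1.40-fold lower (1.31 to 1.48). Lgals8, which detects ruptured endosomes, had 1039 and 973 counts (ratio 1.15, 1.05 to 1.26), and shares 4.20% of its exonic bases with Heatr1 on the other strand, from which its reads cannot be told apart without strand.

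The 10 interferon-stimulated genes listed beside Lgals3bp all had log2 ratios below 0, and 8 passed 2-fold as lower in the library labelled KO, against 2.82% lower over all genes. They summed to 459 CPM in the library labelled KO and 1561 CPM in the library labelled WT. Isg15 had 408 and 3952 counts, Irf7 1273 and 9018, Usp18 338 and 2104, and Bst2 3637 and 15955 in the libraries labelled KO and WT. The part of the interferon-stimulated genes in the Lgals3bp and Lgals9 differences was not tested.

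Galectin genes of epithelia and fat were near 0. Lgals7, known from stratified epithelium, had 38 counts in the library labelled KO and 30 in the library labelled WT, Lgals4 and Lgals2, known from gut, 15 and 8 counts against 27 and 15, and Lgals12, known from adipocytes, 8 against 3. All 11 members below the minimum had at most 38 counts in the library labelled KO and 30 in the library labelled WT, and 3 (S100a2, S100a9 and Anxa10) were at 0 in both.

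Partner genes were counted from lists chosen with earlier results of these data known. Of 7 measured genes for S100 receptors and binding partners, 4 passed 2-fold as higher in the library labelled KO, 0 as lower, and 3 passed neither way, against 4.47% higher over all genes. Cd33, a sialic acid receptor of myeloid cells, had 140 counts in the library labelled KO and 11 in the library labelled WT, Cd36, a scavenger receptor, 1158 and 225, Cacybp, the calcyclin-binding protein, 1344 and 588, and Cd44, the hyaluronan receptor, 7653 and 3857. Ager, which encodes the S100 receptor RAGE, had 2 and 10 counts. Cacybp and Cd44 lost their calls with the GC and length correction (log2 ratios 0.98 and 0.83). Cd33 is a myeloid gene and Cd36 is abundant in macrophages, and macrophage markers were higher in the same library; their part was not tested.

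Among 13 measured annexin partners and membrane repair genes, 1 was higher by 2-fold, against 4.47% of all genes, 0 were lower, and the median was 0.30 on the log2 scale. The gene past 2-fold was Myof (myoferlin), with 6534 counts in the library labelled KO and 3475 in the library labelled WT (ratio 2.03, 1.94 to 2.11), a call lost with TMM factors, median-of-ratios factors, FPKM and the GC and length correction (log2 ratio down to 0.85). The urokinase gene Plau (log2 ratio 0.96), its receptor gene Plaur (0.52) and the caveolin gene Cav1 (0.69) were below the mark. Of 10 measured galectin receptors and ligands, 2 were higher by 2-fold, against 4.47% of all genes, and 0 lower, against 2.82%. These were the leukocyte genes Itgam, with 81 counts in the library labelled KO and 8 in the library labelled WT, and Ptprc, with 103 and 16, whose call was lost with FPKM (log2 ratio 0.45). Macrophages express both, and 9 of 9 measured macrophage markers were higher by 2-fold in the same library, against 4.47% of all genes. Their part was not tested. Thy1 (log2 ratio 0.92) and the integrin gene Itgb1 (0.62) did not reach 2-fold.

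Of 9 measured enzymes that branch and extend N-glycans, the sugars galectins bind, 1 passed 2-fold as higher, against 4.47% of all genes, 0 passed it as lower, and the median was 0.05 on the log2 scale. The gene past it was Mgat5, which adds the branch that galectin-3 prefers, with 1663 counts in the library labelled KO and 851 in the library labelled WT (ratio 2.11, 1.94 to 2.29), a call lost with median-of-ratios factors and FPKM (log2 ratio down to 0.92). Mgat1, which begins branching, had a log2 ratio of -0.43, St6gal1 0.43 and Mgat4b 0.32. Of 12 other EF-hand calcium binders, 0 passed 2-fold in either direction, against 7.29% of all genes, and the median log2 ratio was -0.17. The reticulocalbin genes Rcn3 (-0.79) and Rcn2 (0.70) and the calmodulin gene Calm2 (0.66) were among those with the largest sizes.

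**Figure D3:**
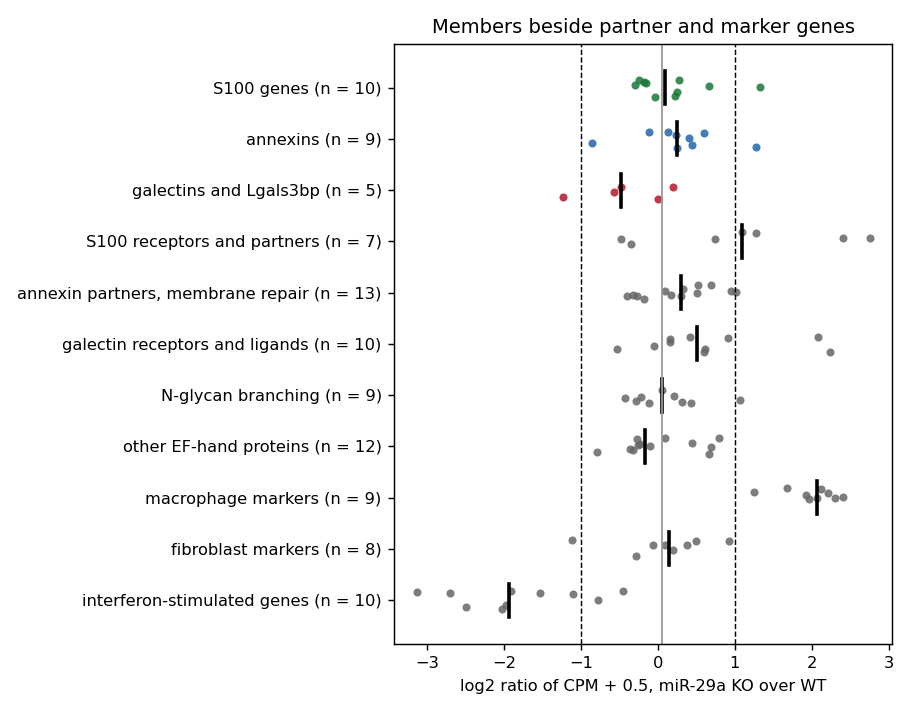
Log2 ratio of CPM + 0.5, miR-29a KO over WT, for the members by family and for partner and marker genes with at least 50 counts (points, genes spread vertically for visibility; black bars, medians; dashed lines, 2-fold; grey line, median of all genes). The family medians of 0.09, 0.25 and -0.48 lie between the macrophage markers at 2.06 and the interferon-stimulated genes at -1.94. The galectin median includes Lgals3bp, and was -0.24 without it.

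The log2 ratio went with base composition. Across the 24 members Spearman's rank correlation between log2 ratio and GC content of the longest transcript was -0.62, and across all genes past the minimum it was -0.44. Genes are not independent replicates, and all points share the same 2 libraries. S100a8 and Anxa3 had 44.2% and 47.3% GC and Lgals3bp 55.8%. The 5 galectin genes had a median of 54.9%, 9 annexins 50.7% and 10 S100 genes 50.4%, against 49.9% for all genes. With the GC and length correction the same 3 members were beyond 2-fold, and the medians were 0.11 for the S100 genes, 0.21 for the annexins and -0.39 for the galectin genes.

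**Figure D4:**
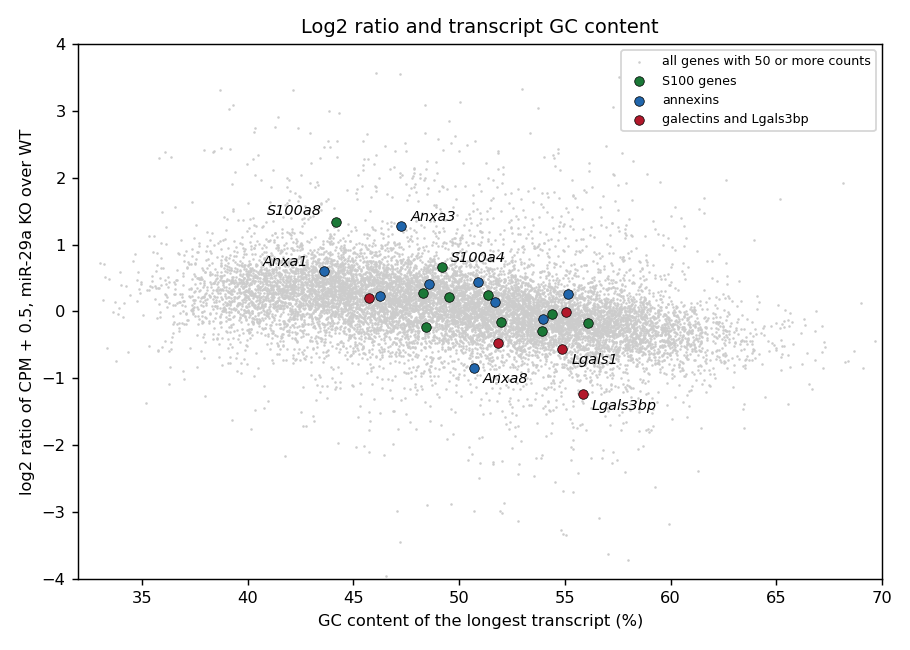
Log2 ratio of CPM + 0.5, miR-29a KO over WT, against GC content of the longest transcript in percent (grey points, all genes with at least 50 counts, of which 15 lie outside the axes; coloured points, the 24 members). Both the grey cloud and the members slope downward, and Lgals3bp, S100a8 and Anxa3 lie outside most of the cloud at their GC content.

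At a threshold of 1.5-fold, 4 members were higher in the library labelled KO (S100a8, S100a4, Anxa3 and Anxa1) and 2 were lower (Lgals3bp and Anxa8), against 13.3% higher and 8.88% lower over all genes, or 22.2% beyond it. Anxa1 lost this call with edgeR's TMM factors (log2 ratio 0.57), median-of-ratios factors (0.53), FPKM (0.54) and the GC and length correction (0.30), and S100a4 with that correction (0.53). Lgals1 passed it as lower with TMM factors, median-of-ratios factors and FPKM. Of the 24 intervals, 12 lay wholly above a ratio of 1, 8 wholly below and 4 included it, and the shares over all genes are not given here. These intervals cover counting error only. Those of Anxa6, S100a16 and Lgals8 excluded 1, although the GC and length correction turned the sign of these ratios.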

How the data were processed

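RNA-seq was measured in 1 library labelled miR-29a KO and 1 labelled WT. Each table the authors deposited holds, per its header, 1 count and 1 FPKM value for every gene. Reads were aligned with HISAT2 to mm10 (GRCm38), as the submitters' processing notes give it. Sources used here do not give the counter, its strand setting or the annotation release. Ribosomal RNA was removed before library preparation, per the labels' protocols. The deposited FPKM values of 28 of 32 members in the library labelled KO and 27 of 30 in the library labelled WT equalled, within 0.1%, counts divided by all exonic bases of the gene in GENCODE M21 and 1 factor per library. Lgals1 and Anxa1 were among the exceptions in both libraries.

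Counts as deposited were divided by their total (CPM), and KO over WT was taken as a log2 ratio after adding 0.5 CPM, for genes with 50 or more counts in either library. Of 52636 genes, 52489 matched GENCODE M21 by identifier, and 4 non-member genes whose count to FPKM ratio differed between tables by more than 1% were left out. Members past the minimum are all named. Of each partner list up to 4 genes with the largest log2 ratio are named, and other named genes were chosen after their values were seen. A gene that this rule takes in is not reported here. The members, lists and rules were chosen with earlier results of these data known. Promoter and microRNA sequences are from RefSeq (GRCm38.p6); 27 of 35 members had a promoter entry. The GC and length correction subtracted medians within 10 bins of transcript GC content and then 10 bins of length. Alternatives used edgeR TMM and median-of-ratios factors, other totals, pseudocounts, minimums and thresholds, and FPKM. The code for the intervals was run on counts simulated with counting error only. That run cannot show how the intervals hold for spread between animals or libraries. The tools were edgeR 4.0.16 in R 4.3.3, and scipy 1.17.1 with pandas 2.3.3, numpy 2.4.6 and matplotlib 3.10.9 in Python 3.11.15.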

Additional observations from a re-analysis of the deposited data

How the results depend on the processing

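S100a8 and Anxa3 stayed beyond 2-fold higher and Lgals3bp beyond 2-fold lower under every alternative scaling, pseudocount, minimum and correction run. Their log2 ratios ranged from 1.08 to 1.42, 1.12 to 1.28 and -1.30 to -1.02. At 1.5-fold 4 members were higher and 2 lower, against 3 and 3 with TMM factors, median-of-ratios factors or FPKM and 2 and 2 with the GC and length correction, settings combined after the data were seen. At 4-fold the counts were 0 and 0. The galectin median of -0.48 was -0.37 with no count minimum, which adds genes of few counts, and -0.39 with the GC and length correction. That correction also turned the sign of 5 small ratios, those of Anxa6, S100a13, S100a16, Lgals3 and Lgals8. No other alternative turned a sign. Over all 12382 genes past the minimum, 554 were higher and 349 lower by 2-fold as reported. With a pseudocount of 2 CPM these counts were 351 and 214, and by FPKM 322 and 288. A minimum of 200 counts left 9829 genes, of which 340 were higher and 213 lower. No paired analysis was possible because each genotype has 1 library. Depth limits the 11 members below the minimum, whose ratios are not read.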

Other observations

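Relatives outside the symbol rule gave a few further values. S100g, a calcium-buffering S100 gene known from intestine, had 122 counts in the library labelled KO and 73 in the library labelled WT (ratio 1.80, counting interval 1.34 to 2.44). S100a7a, known from inflamed skin, had 13 counts in the library labelled KO and 49 in the library labelled WT, just under the minimum. Lgalsl, a galectin-like gene, had 414 and 346 counts in the libraries labelled KO and WT (ratio 1.29, 1.11 to 1.49), and the lens galectin gene Grifin had 0 and 6. Of 8 relatives of the S100 family that were looked up, 4 were at 0 in both libraries, S100z and the skin barrier genes Flg, Hrnr and Rptn.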
